A study of Mus musculus with 160 samples.

Results

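The genes described here are 32 genes by which resident macrophages are recognised in bulk RNA, among 56980 gene IDs counted in every library. They were chosen by name, from what macrophages are known to express, but with earlier results of these data known. All 32 were found in the tables, and all 32 passed the filter on low counts in every comparison. They were measured in 160 RNA-seq libraries of polyadenylated RNA from 35 male mice, in liver, brown fat, subcutaneous fat, visceral fat and quadriceps muscle. The inbred mice were SJL, DBA/2J, A/J or C57BL/6J, with no transgene or engineered allele named in the labels. From 12 weeks of age they ate a Mediterranean, vegetarian or vegan diet or an American diet, all 4 with equal energy and macronutrients per the labels and all given after chow, and tissues were taken 6 weeks later, at 18 weeks. Each tissue had 32 libraries, 8 per strain, 8 per diet and 2 in each of 16 cells of strain by diet.

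Resident macrophages depend on the growth factor receptor CSF1R and the transcription factor PU.1, encoded by Spi1, and take up dying cells, lipoproteins, microbes and old red cells. Those of the liver, the Kupffer cells, sit in the sinusoids and are known for CLEC4F, a galactose-binding lectin, VSIG4, a receptor for complement C3 fragments, TIMD4, a receptor for phosphatidylserine on dying cells, and CD5L, a protein that they secrete. Macrophages of fat and muscle lie around vessels and between cells, and many of them carry LYVE1, FOLR2 and the haemoglobin receptor CD163, whereas CCR2 marks monocytes and the macrophages that recently came from them.

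Total counts per library ranged from 17996919 to 54796454. The defining genes of each tissue were present: the summed level of 5 hepatocyte genes was at least 74638 counts per 1000000 counts (CPM) in liver, and median sums of adipocyte, brown adipocyte and muscle fibre genes were highest in visceral fat, brown fat and muscle. Liver transcripts were also found elsewhere: Alb, encoding serum albumin, exceeded 10% of the liver mean in 4 brown fat, 8 muscle, 4 subcutaneous and 9 visceral libraries. A further subcutaneous library (A/J mouse 24) had little Hoxc10, a gene that marks that depot. A further visceral library (SJL mouse 50) had no Wt1, which marks visceral fat, and 16.3 CPM of the subcutaneous marker Hoxc10. That visceral library also had 147 CPM of the B cell gene Cd79a. The median of Cd79a was 120 CPM in subcutaneous fat and at most 4.41 CPM in the other tissues. In bulk RNA fewer macrophages and less RNA per macrophage cannot be told apart. Nothing in the labels says that the libraries of a group came from separate cages or days, so p-values measure the spread between these mice.

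The promoter windows of 5 genes are shown because Clec4f, Vsig4 and Cd5l were high together in liver whereas Timd4 and Marco were highest in subcutaneous fat. Each window runs from 250 bases before the annotated start to 50 bases after it, 300 bases in all, from RefSeq on build GRCm38.p6, 5′ to 3′ on the gene's strand. Capitals mark 2 searched words on either strand: GAGGAAG or CTTCCTC, of the kind bound by PU.1, and TGCTGA or TCAGCA, of the kind bound by MAF factors. The build differs from the GRCm39 build of the counts, so these coordinates apply to the windows alone.
Clec4f, chr6:83656067-83656366, minus strand: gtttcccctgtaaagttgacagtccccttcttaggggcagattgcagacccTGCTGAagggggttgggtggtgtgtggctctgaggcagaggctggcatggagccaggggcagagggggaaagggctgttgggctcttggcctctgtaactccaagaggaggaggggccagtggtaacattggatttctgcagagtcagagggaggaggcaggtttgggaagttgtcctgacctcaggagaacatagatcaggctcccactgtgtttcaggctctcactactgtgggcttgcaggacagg
Vsig4, chrX:96293389-96293688, minus strand: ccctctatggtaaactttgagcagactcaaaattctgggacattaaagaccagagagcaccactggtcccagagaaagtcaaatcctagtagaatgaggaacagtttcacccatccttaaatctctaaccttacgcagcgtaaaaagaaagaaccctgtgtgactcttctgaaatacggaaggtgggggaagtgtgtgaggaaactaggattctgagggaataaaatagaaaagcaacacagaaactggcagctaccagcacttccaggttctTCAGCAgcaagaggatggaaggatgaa
Cd5l, chr3:87357631-87357930, plus strand: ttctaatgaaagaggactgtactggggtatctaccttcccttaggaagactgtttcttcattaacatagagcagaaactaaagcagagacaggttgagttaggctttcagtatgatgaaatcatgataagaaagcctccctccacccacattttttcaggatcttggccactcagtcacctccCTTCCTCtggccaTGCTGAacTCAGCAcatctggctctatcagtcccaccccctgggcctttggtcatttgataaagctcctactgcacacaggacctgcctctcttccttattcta
Timd4, chr11:46810549-46810848, plus strand: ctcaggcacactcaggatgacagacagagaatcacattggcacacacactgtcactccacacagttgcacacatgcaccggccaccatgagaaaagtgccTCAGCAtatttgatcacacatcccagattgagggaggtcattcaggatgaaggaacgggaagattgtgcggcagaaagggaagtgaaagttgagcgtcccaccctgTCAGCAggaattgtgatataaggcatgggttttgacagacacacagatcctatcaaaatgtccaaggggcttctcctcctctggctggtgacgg
Marco, chr1:120504975-120505274, minus strand: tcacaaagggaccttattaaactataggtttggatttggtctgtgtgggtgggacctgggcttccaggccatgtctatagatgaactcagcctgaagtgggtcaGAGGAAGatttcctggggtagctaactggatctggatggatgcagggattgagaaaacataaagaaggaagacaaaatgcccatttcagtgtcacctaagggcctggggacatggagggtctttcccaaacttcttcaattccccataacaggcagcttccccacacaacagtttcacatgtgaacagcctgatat
The Clec4f and Vsig4 windows held 1 MAF-type word each, the Cd5l window held 2 and the Timd4 window held 2. The PU.1-type word was in the Cd5l and Marco windows. Of the 32 genes, 24 had a window in the table, of which 10 held the MAF-type word and 9 the PU.1-type word in any window. Over all 27025 genes with windows the shares were 21.7% and 15.4%. A match shows only that the letters are there.

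Levels between genes are compared in transcripts per 1000000 (TPM), which the authors scaled by gene length. Among the lineage genes, Csf1r had a median of 24.4 TPM in liver, 13.6 TPM in brown fat, 129 TPM in subcutaneous fat, 112 TPM in visceral fat and 21.6 TPM in muscle. C1qa, a chain of the complement starter C1q and the highest complement gene, had medians of 115, 73.7, 586, 480 and 82.4 TPM in the same order of tissues. Both genes were thus highest in the white fat depots, with the subcutaneous and visceral medians close to each other. Lyz2, encoding lysozyme, had 107, 156, 2019, 1725 and 247 TPM, the highest median of the 32 genes in the 4 tissues other than liver, where Cd5l, C1qa and Clec4f stood above it. The lysosomal membrane scavenger receptor Cd68 had 16.3, 17.3, 153, 172 and 18.1 TPM, and Fcer1g, the shared signalling chain of Fc receptors, 18.1, 13.7, 92.0, 87.3 and 14.8 TPM. Adgre1, which encodes the macrophage marker F4/80, had 14.1, 6.75, 38.0, 49.9 and 8.29 TPM. Hmox1, encoding the haem-degrading enzyme haem oxygenase 1, had 29.6, 17.0, 82.0, 75.0 and 16.4 TPM. By TPM, which were not scaled between libraries by TMM, all 5 genes again had their 2 highest medians in subcutaneous and visceral fat. By TMM-scaled CPM the Hmox1 median was highest in liver, at 36.5 CPM, beside 34.1 CPM in subcutaneous and 33.1 CPM in visceral fat. The gap of Csf1r was smaller by that measure, with medians of 85.8 CPM in liver and 182 CPM in subcutaneous fat. The chemokine receptor Ccr2 stood at 0.54 TPM in liver, 2.04 TPM in brown fat, 17.7 TPM in subcutaneous fat, 23.1 TPM in visceral fat and 1.94 TPM in muscle, so that liver was lowest.

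**Figure D1:**
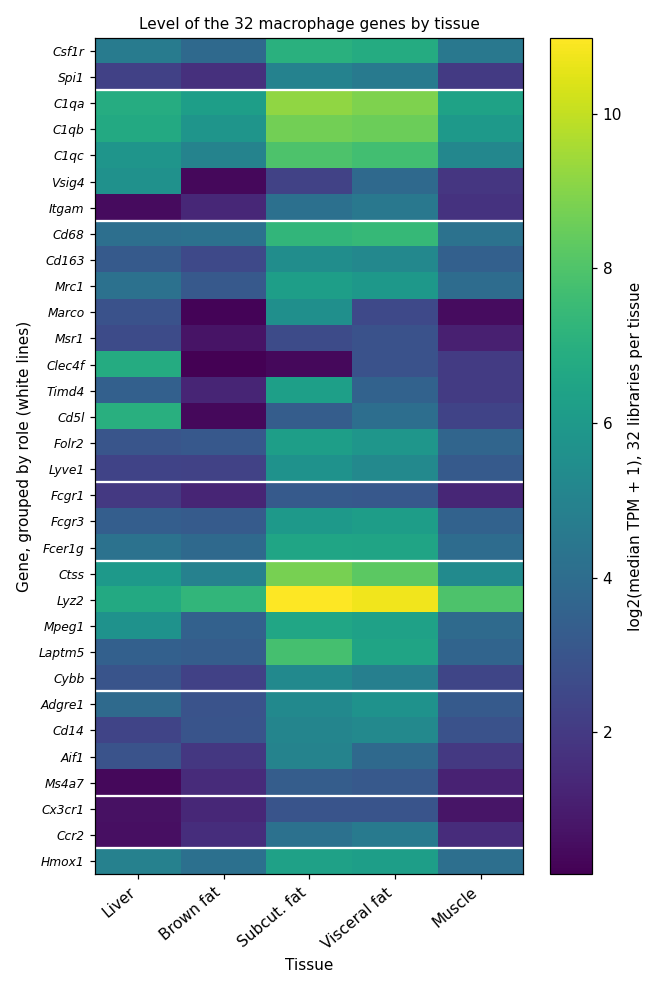
Median level of the 32 genes in each tissue, as log2 of the median TPM plus 1 over 32 libraries (colour scale), with rows grouped by role and white lines between groups. Most rows are brightest in subcutaneous and visceral fat, while Clec4f, Cd5l and Vsig4 are brightest in liver, at medians of 112, 126 and 49.2 TPM. By TMM-scaled CPM, not shown in this map, Msr1, Mpeg1 and Hmox1 also had their highest medians in liver, at 21.1, 140 and 36.5 CPM.

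Clec4f ranged from 88.6 to 404 CPM in liver with a median of 175 CPM, against medians of 0.140 CPM in brown fat, 0.174 CPM in subcutaneous fat, 4.44 CPM in visceral fat and 3.80 CPM in muscle. Every liver library lay above every other library, the highest of which had 85.9 CPM in visceral fat. Against the mean of the other 4 tissues on the log scale, Clec4f was higher in liver by 5.12 on the log2 scale (SE 0.44), with mean levels of 191 ± 66.1 CPM in liver (SD, n = 32) and 7.7 ± 13.9 CPM in the other tissues (SD, n = 128; edgeR quasi-likelihood test, Benjamini-Hochberg adjusted p = 1.27e-22). Cd5l ranged from 88.0 to 398 CPM in liver, against 0.0474 to 85.1 CPM elsewhere, and the groups did not overlap (log2 difference 4.39, SE 0.31, edgeR adjusted p = 1.74e-29). Vsig4 ranged from 29.2 to 85.5 CPM in liver, against 0 to 22.1 CPM elsewhere, also without overlap (log2 difference 4.18, SE 0.23, edgeR adjusted p = 1.4e-38). Of the 32 genes, 11 were higher in liver (35.4% of all 25409 genes tested) and 14 lower (50.0%), which are counts close to what those shares of 32 would give.

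Outside liver the level of Clec4f went with Alb. In libraries with Alb under 0.1% of the liver mean (17 of brown fat, 2 of muscle, 12 of subcutaneous and 3 of visceral fat), Clec4f had a median of 0 CPM in each tissue and at most 0.321 CPM. In those with Alb over 10% it was 7.79 to 28.1 CPM in brown fat, 11.1 to 41.1 CPM in muscle, 9.22 to 38.3 CPM in subcutaneous fat and 9.59 to 85.9 CPM in visceral fat. Vsig4 and Cd5l were above 0 in some of the low-Alb libraries: Vsig4 had 0.948 to 8.33 CPM in the 3 visceral ones, and Cd5l reached 47.9 CPM in a subcutaneous one (C57BL/6J mouse 7). Without the libraries set aside for liver transcripts or depot markers, the liver difference of Clec4f was 7.06 on the log2 scale and that of Cd5l 5.70. The libraries kept still held liver transcripts. Clec4f reached 43.8 CPM in muscle (DBA/2J mouse 38, with Alb at 10006 CPM) and 22.9 CPM in brown fat (DBA/2J mouse 45, with Alb at 8206 CPM).

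**Figure D2:**
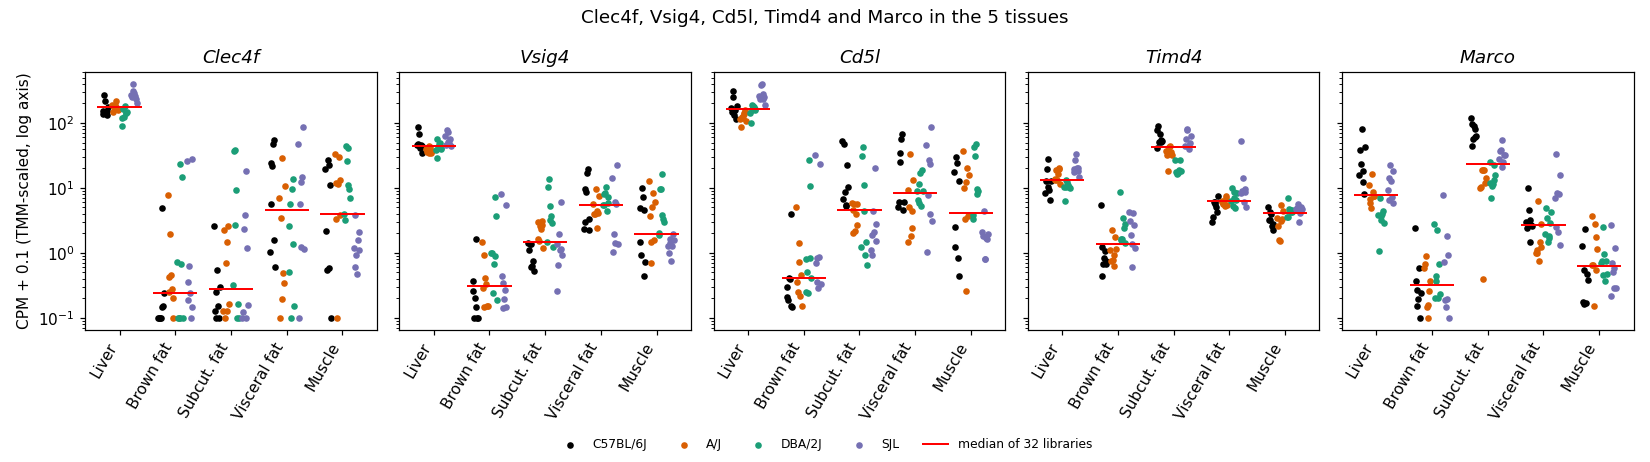
Levels of Clec4f, Vsig4, Cd5l, Timd4 and Marco in each of the 160 libraries, as TMM-scaled CPM plus 0.1 on a log axis, by tissue, with 1 point per library coloured by strain and a red line at the median of 32. The first 3 genes are separate in liver, whereas Timd4 and Marco have their highest medians, 42.2 and 23.5 CPM, in subcutaneous fat.

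Timd4 had its highest level in subcutaneous fat, not in liver. Its median was 42.2 CPM in subcutaneous fat (range 16.4 to 89.3), 13.3 CPM in liver (6.09 to 33.0), 6.11 CPM in visceral fat, 4.07 CPM in muscle and 1.29 CPM in brown fat. The subcutaneous and liver ranges overlapped. In subcutaneous fat it was higher than the mean of the other 4 tissues by 3.03 on the log2 scale (SE 0.12), at 43.2 ± 20.4 CPM (SD, n = 32) against 7.22 ± 7.33 CPM (SD, n = 128; edgeR adjusted p = 9.68e-54). In liver it was higher by 1.13 (SE 0.13, edgeR adjusted p = 9.34e-15), although the plain means, 15.1 and 14.2 CPM, were close, because the test averages logs over tissues of which brown fat was very low. Marco, a scavenger receptor for bacteria and particles, had a median of 23.5 CPM in subcutaneous fat (0.295 to 118), 7.81 CPM in liver (0.986 to 79.4), 2.55 CPM in visceral fat and under 1 CPM in muscle and brown fat. It was higher in subcutaneous fat by 3.66 (SE 0.24, edgeR adjusted p = 6.78e-32) and in liver by 2.04 (SE 0.25, edgeR adjusted p = 3.32e-13). Sums of 4 B cell genes ranged from 1.32 to 882 CPM over the subcutaneous libraries. A/J mouse 24 had the lowest of these sums and the lowest subcutaneous Marco level, and its Timd4 level, 18.3 CPM, was the lowest of the 8 A/J libraries. The part of B cells in the Timd4 and Marco levels was not tested.

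The other genes higher in liver were Msr1, the class A scavenger receptor, at 21.7 ± 4.47 CPM in liver and 7.31 ± 5.16 CPM elsewhere (log2 difference 1.83, SE 0.11, edgeR adjusted p = 2.57e-34), and Mpeg1, encoding the pore-forming perforin-2, at 147 ± 53.2 and 71.9 ± 48.5 CPM (1.29, SE 0.12, 6.89e-20). Hmox1, Aif1, Adgre1 and Fcgr1 were also higher. The genes lower in liver were led by Itgam, the integrin chain CD11b, at 1.35 ± 0.455 CPM in liver and 15.5 ± 11.8 CPM elsewhere (log2 difference -3.16, SE 0.14, edgeR adjusted p = 7.84e-49), and Ccr2, at 2.29 ± 0.682 and 21.8 ± 17.6 CPM (-2.84, SE 0.14, 3.42e-45). Lyz2 was lower by 1.73 and Lyve1, the hyaluronan receptor, by 1.22 on the log2 scale. Csf1r did not pass the test in liver (95.6 ± 36.2 CPM and 117 ± 68.5 CPM elsewhere; edgeR adjusted p = 0.37). Among 6 other Kupffer cell genes, 4 were higher and 2 lower in liver (median log2 difference 2.19, all genes -0.27), with the iron exporter Slc40a1 at 2.88 (SE 0.12). The endothelial cadherin Cdh5, on the same list, was lower at -2.13 (SE 0.08). All 9 genes of the list for LYVE1- and FOLR2-positive macrophages were lower in liver (median -4.80), with coagulation factor F13a1 at -6.54 (SE 0.17) and the lectin Cd209d at -5.83 (SE 0.18).

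In subcutaneous fat 29 of the 32 genes were higher than in the mean of the other tissues (46.9% of all genes) and 3 lower (35.3%). The smallest adjusted p was that of Laptm5, a lysosomal membrane protein of blood cells, at 214 ± 71.2 CPM in subcutaneous fat and 42.8 ± 37.9 CPM elsewhere (log2 difference 2.64, SE 0.09, edgeR adjusted p = 2.41e-60). Lyve1 was higher by 1.73 (SE 0.09) and Lyz2 by 1.88 (SE 0.10). The 3 lower genes were Clec4f (-2.75, SE 0.64), Vsig4 (-1.47, SE 0.30) and Cd5l (-0.99, SE 0.40). The Cd5l difference, with an edgeR adjusted p of 0.0168, did not pass with the mouse as a block (-0.73, adjusted p = 0.0793) or without the libraries set aside (-0.36, adjusted p = 0.396). In visceral fat 28 genes were higher (41.8% of all genes) and 0 lower (29.2%), led by Ccr2 at 40.6 ± 17.7 CPM in visceral fat and 12.2 ± 12.3 CPM elsewhere (log2 difference 2.34, SE 0.10, edgeR adjusted p = 7.99e-51). Itgam was higher there by 2.27 (SE 0.10), Cd14, the lipopolysaccharide co-receptor, by 1.26 (SE 0.08) and Csf1r by 1.03 (SE 0.07).

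Brown fat had the lowest summed level of the 32 genes, 482 ± 190 CPM (SD, n = 32), beside 2464 ± 661 CPM in subcutaneous fat, 2069 ± 558 CPM in visceral fat, 1400 ± 377 CPM in liver and 882 ± 388 CPM in muscle. There 31 genes were lower than in the mean of the other tissues (43.1% of all genes) and 0 higher (34.3%). Csf1r was at 39.5 ± 11.1 CPM in brown fat and 131 ± 58.2 CPM elsewhere (log2 difference -1.63, SE 0.08, edgeR adjusted p = 9.22e-44). Timd4 was lower by 2.70 and Msr1 by 2.09 on the log2 scale. In muscle 21 genes were lower (42.5% of all genes) and 0 higher (35.8%), led by Laptm5 at 28.9 ± 13.6 CPM in muscle and 89 ± 88.3 CPM elsewhere (log2 difference -1.02, SE 0.12, edgeR adjusted p = 5.96e-15).

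Set directly against subcutaneous fat, visceral fat had 6 genes higher (32.4% of all genes) and 8 lower (27.8%). Timd4 was at 8.06 ± 8.43 CPM in visceral and 43.2 ± 20.4 CPM in subcutaneous fat (SD, n = 32 each; log2 difference -2.52, SE 0.18, edgeR adjusted p = 3.64e-26), and the highest visceral value, 52.7 CPM, was that of SJL mouse 50. Laptm5 was lower by 1.16 (SE 0.14, edgeR adjusted p = 2.35e-13) and Marco by 2.90 (SE 0.37, 5.11e-12), and the same mouse had the highest visceral values of both, 246 and 33.2 CPM. Its visceral library lacked Wt1 and held the subcutaneous marker Hoxc10. The subcutaneous library of this mouse had 56.0 CPM of Timd4, 203 CPM of Laptm5 and 37.5 CPM of Marco. The B cell gene sum had a median of 16.6 CPM in visceral and 446 CPM in subcutaneous fat and was 542 CPM in that visceral library, and its part in these 3 differences was not tested. Without the libraries set aside they were -2.80 for Timd4, -1.17 for Laptm5 and -3.48 for Marco. Higher in visceral fat were Ccr2, at 40.6 ± 17.7 and 29.7 ± 9.9 CPM (log2 difference 0.46, SE 0.14, edgeR adjusted p = 0.00303), and Vsig4, at 6.65 ± 5.18 and 2.44 ± 2.88 CPM (1.69, SE 0.35, 1.56e-05). Clec4f was higher too (2.42, SE 0.73, edgeR adjusted p = 0.00258), beside a median hepatocyte gene sum of 4164 CPM in visceral and 256 CPM in subcutaneous fat. The part of liver transcripts in that difference was not tested; without the libraries set aside it was 2.10.

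**Figure D3:**
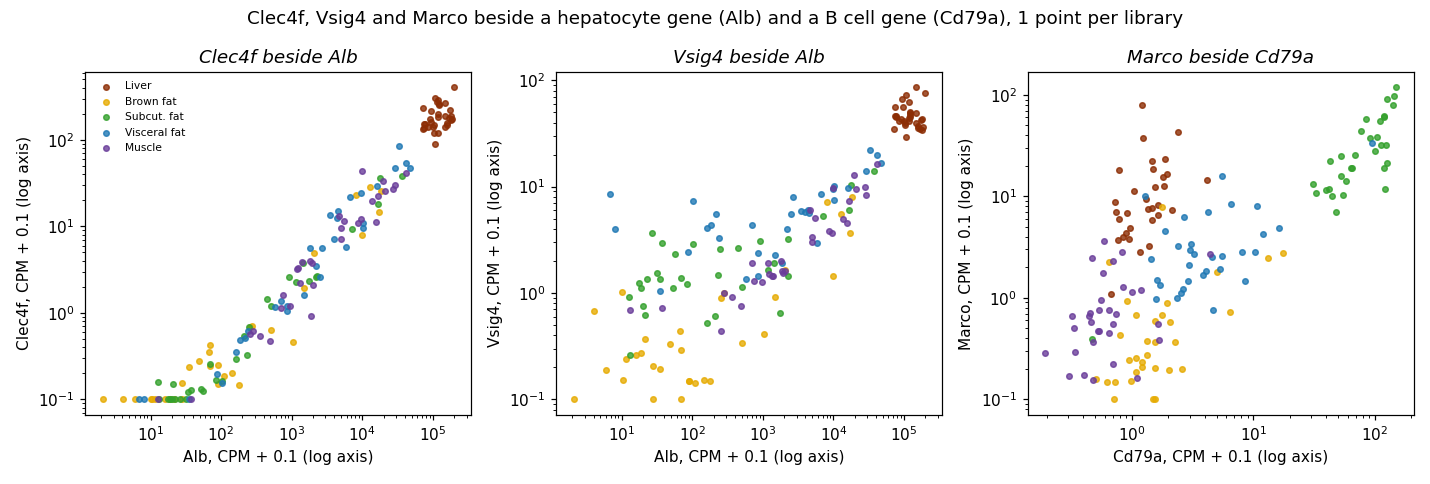
Levels of Clec4f and Vsig4 beside the hepatocyte gene Alb and of Marco beside the B cell gene Cd79a, in CPM plus 0.1 on log axes, 1 point per library coloured by tissue. Outside liver Clec4f lies along a line with Alb, down to 0 CPM, and the Vsig4 points of low Alb spread between 0 and 8.33 CPM.

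Strains were compared within each tissue, each strain with the mean of the other 3, so that the 4 comparisons of a tissue share libraries. Reads of the strains other than C57BL/6J were aligned with a relaxed mismatch penalty, so strain, alignment setting and distance from the reference genome cannot be told apart. Over all 4 strains 31 of the 32 genes differed in liver (53.0% of all genes tested), 24 in brown fat (56.8%), 30 in subcutaneous fat (65.6%), 22 in visceral fat (40.1%) and 28 in muscle (45.5%). For none of the 32 genes was the same strain apart from the others without overlap in 2 tissues. Opposite directions of that kind could therefore not occur. Called differences did change direction between tissues. In DBA/2J mice Ctss was lower in muscle and higher in brown and visceral fat, and Folr2 was lower in liver and higher in brown fat. In muscle the mean of the other strains holds the SJL libraries, and the DBA/2J and C57BL/6J ranges of Ctss overlapped. Strain differences were not tested between tissues.

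In liver SJL mice had the highest medians of Clec4f, Cd5l, Timd4 and Vsig4 among the 4 strains. Clec4f had 200 to 404 CPM in SJL livers (median 266, n = 8), against 88.6 to 267 CPM in the livers of the other 3 strains (n = 24). SJL livers overlapped with the highest of the others. The difference was 0.76 on the log2 scale (SE 0.09, edgeR adjusted p = 6.34e-08). Cd5l was higher by 0.84 (279 ± 74.7 and 155 ± 46.9 CPM, edgeR adjusted p = 8.26e-08) and Timd4 by 0.69 (21.1 ± 5.96 and 13.1 ± 4.92 CPM, 0.000133). Hmox1 was at 63.3 ± 14.6 CPM in SJL and 32 ± 11.2 CPM in the other strains (1.00, SE 0.12, edgeR adjusted p = 1.6e-07). In all, 21 genes were higher in SJL livers (16.5% of all genes) and 1 lower (13.6%), with a median log2 difference of 0.38 over the 32 genes and 0.01 over all genes. Folr2, among the higher ones, had the smallest adjusted p of the 32 genes (edgeR adjusted p = 1.4e-09). The mean of the other strains holds DBA/2J livers, at 0.302 to 1.07 CPM of Folr2. The 1 lower gene was Cx3cr1, the fractalkine receptor, at 0.357 ± 0.161 CPM in SJL and 2.19 ± 1.19 CPM in the other strains (-2.54, SE 0.37, edgeR adjusted p = 2.26e-06). Of the 6 other Kupffer cell genes, 4 were higher in SJL livers and 0 lower, among them the potassium channel gene Kcna2 (1.09, SE 0.16). Sums of sinusoidal endothelial genes had a median of 220 CPM in SJL livers and 169 to 218 CPM in those of the other strains.

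Folr2, the folate receptor of macrophages, set DBA/2J livers apart. It had 0.302 to 1.07 CPM in DBA/2J livers (median 0.672, n = 8), against 3.75 to 22.1 CPM in the livers of the other 3 strains (n = 24). No DBA/2J liver reached the others, and the log2 difference was -3.59 (SE 0.18, edgeR adjusted p = 1.25e-16). By median the other strains followed as A/J with 5.88 CPM, SJL with 8.20 CPM and C57BL/6J with 9.75 CPM. The A/J range, 3.75 to 6.03 CPM, lay below that of SJL, 6.96 to 13.0 CPM, and the SJL and C57BL/6J ranges overlapped. In brown fat Folr2 was higher in DBA/2J, at 7.18 ± 1.37 CPM, against 5.02 ± 1.54 CPM in the other strains (log2 difference 0.55, edgeR adjusted p = 0.00251). It did not pass in DBA/2J subcutaneous fat (-0.40, adjusted p = 0.0635), visceral fat (0.05, 0.802) or muscle (-0.27, 0.199). The strain differences of Folr2 were not tested between tissues. In DBA/2J livers 13 genes were lower (11.5% of all genes) and 1 higher (14.6%). Lyve1 was lower by 1.03 (edgeR adjusted p = 1.17e-06), Hmox1 by 0.87 (1.11e-05), Clec4f by 0.56 (138 ± 29 and 209 ± 65.8 CPM, 3.7e-05), Timd4 by 0.64 (0.00101) and Marco by 2.01 on the log2 scale (7.98e-05). The 1 higher gene, Cx3cr1 (0.77, edgeR adjusted p = 0.0431), lost its call without any 1 of 17 of the libraries, with adjusted p up to 0.215. Its DBA/2J range, 0.696 to 4.90 CPM, overlapped with that of A/J, 1.88 to 4.32 CPM. The mean of the other strains also holds SJL livers, at 0.107 to 0.620 CPM.

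C57BL/6J livers had 11 genes higher (14.0% of all genes) and 2 lower (12.7%). Folr2 was at 12.1 ± 4.86 CPM in C57BL/6J and 4.96 ± 3.53 CPM in the other strains (log2 difference 1.88, SE 0.12, edgeR adjusted p = 6.73e-14). That difference averages logs over the other strains, among them DBA/2J livers at 0.302 to 1.07 CPM. The C57BL/6J and SJL ranges of Folr2 overlapped. Marco was at 29.7 ± 23.4 and 8.09 ± 5.31 CPM (2.00, SE 0.28, edgeR adjusted p = 2.53e-06), and its highest value, 79.4 CPM, was that of mouse 8. Lyve1 (0.98, SE 0.13) and Fcer1g (0.69, SE 0.10) were also higher, and Msr1 was lower (-0.31, SE 0.09). A/J livers had 3 genes higher (14.7%) and 10 lower (13.9%). Mpeg1 was at 208 ± 47.8 CPM in A/J and 127 ± 37.7 CPM in the other strains (0.74, SE 0.14, edgeR adjusted p = 0.000108), and Cx3cr1 was higher by 1.52 (SE 0.26, 3.84e-05). The SJL livers, at 0.107 to 0.620 CPM of Cx3cr1, are in the mean of the other strains. Cd5l was at 124 ± 21.3 and 207 ± 77.2 CPM (-0.67, SE 0.11, edgeR adjusted p = 1.77e-05), and Cybb, the catalytic subunit of the phagocyte oxidase, was lower by the same amount (SE 0.11, 2.49e-05). Vsig4 was lower by 0.37 (SE 0.09) and Kcna2 by 1.37 (SE 0.19); of the 6 other Kupffer cell genes 4 were lower in A/J livers and 0 higher.

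**Figure D4:**
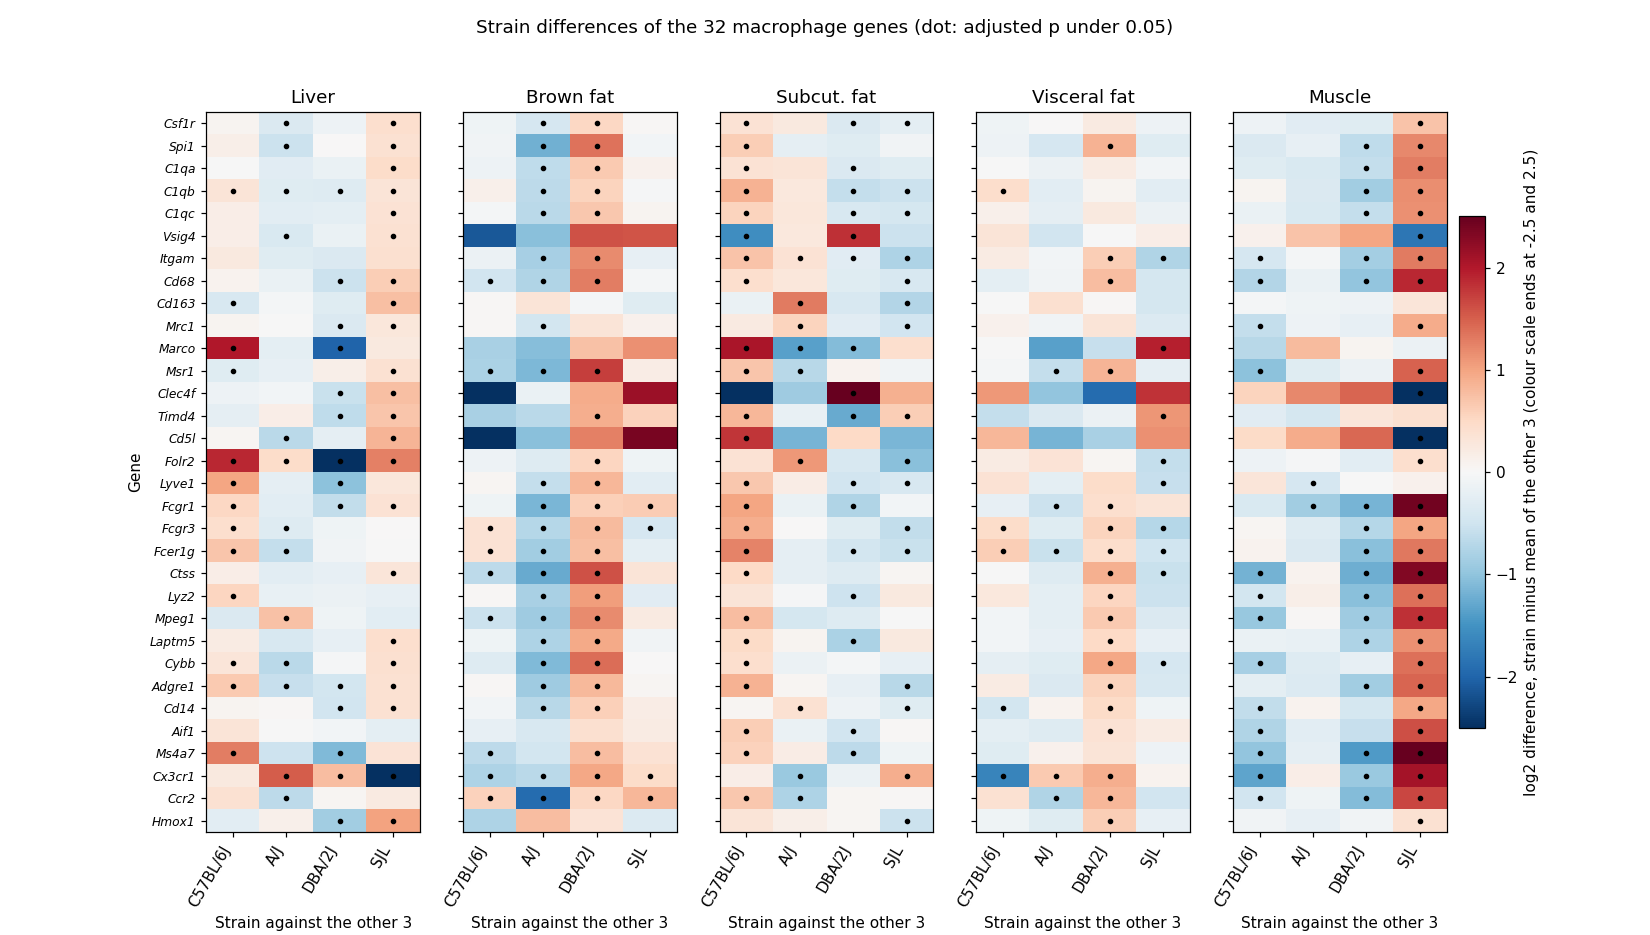
Log2 difference of each strain from the mean of the other 3 for the 32 genes (rows) in each tissue (panels), red for higher and blue for lower, on a scale that ends at -2.5 and 2.5. A dot marks an adjusted p under 0.05. The SJL column of muscle and the DBA/2J column of brown fat are red in most rows, with 25 and 24 genes called higher, and the A/J column of brown fat is blue, with 22 called lower.

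Among the 20 comparisons of a strain within a tissue, SJL muscle had the largest median difference of the 32 genes. Ctss, encoding the lysosomal protease cathepsin S, had 90.3 to 168 CPM in SJL muscles (median 135, n = 8), against 11.4 to 51.0 CPM in those of the other 3 strains (n = 24). Every SJL muscle lay above every other one (log2 difference 2.32, SE 0.12, edgeR adjusted p = 5.67e-15). Ms4a7, a membrane protein of mature macrophages, had 11.7 to 26.9 CPM in SJL and 1.15 to 5.62 CPM in the other strains (2.63, SE 0.15, edgeR adjusted p = 3.97e-14). Fcgr1, the high-affinity Fc receptor, had 5.23 to 13.7 and 0.594 to 4.70 CPM (2.41, SE 0.17, edgeR adjusted p = 2.43e-12). Neither gene overlapped between the groups. In all 25 genes were higher in SJL muscles (20.9% of all genes) and 3 lower (16.3%), with a median log2 difference of 1.18 over the 32 genes and 0.01 over all genes. Csf1r was higher by 0.71 and Mrc1, the mannose receptor, by 0.92 on the log2 scale.

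The 3 genes lower in SJL muscles were Clec4f (log2 difference -3.20), Cd5l (-2.85) and Vsig4 (-1.81). Hepatocyte gene sums moved with them, with a median of 978 CPM in SJL muscles and of 5445 to 6410 CPM in those of the other strains. Without the libraries set aside none of the 3 passed the edgeR test (adjusted p = 0.127, 0.126 and 0.246), while 25 of the 32 genes were called. The share of all genes in that fit is not given. Genes from lists for other macrophage states were higher as well: 10 of 11 lipid-associated macrophage genes (median 1.60, all genes 0.01), among them Gpnmb, a lysosomal glycoprotein, at 42.4 ± 10.7 CPM in SJL and 11.3 ± 9.95 CPM in the other strains (2.99, SE 0.23). The Gpnmb difference averages logs over the other strains and is larger than the plain means give. Of 9 chemokine genes 8 were higher and 0 lower, with Ccl2, the ligand of CCR2, at 6.93 ± 1.28 and 1.3 ± 0.579 CPM (2.51, SE 0.18). Of 9 monocyte genes 5 were higher and 2 lower, with Plac8 at 2.63 (SE 0.25). The transcription factor Runx1 was at 13.9 ± 2.99 and 3.75 ± 1.2 CPM (1.98, SE 0.12), among 9 lineage regulators higher and 1 lower of 13. Dendritic cell gene sums had a median of 20.2 CPM in SJL muscles and 9.49 to 13.5 CPM in the others, and T cell sums had 4.82 CPM and 0.646 to 4.11 CPM. Their part in the result was not tested.

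In DBA/2J muscles 17 genes were lower (8.93% of all genes) and 0 higher (6.7%), with Ctss at 20.3 ± 3.32 CPM in DBA/2J and 62.8 ± 49.3 CPM in the other strains (log2 difference -1.23, SE 0.14, edgeR adjusted p = 1.54e-07) and Ms4a7 at -1.42 (SE 0.18). In C57BL/6J muscles 13 were lower (14.2%) and 0 higher (13.1%), with Ctss at -1.18 (SE 0.14) and Cx3cr1 at -1.31 (SE 0.23). The SJL muscles are in the mean of both comparisons. By median, Ctss stood at 20.7 CPM in DBA/2J, 19.5 CPM in C57BL/6J and 38.2 CPM in A/J muscles, and the DBA/2J and C57BL/6J ranges overlapped. Without C57BL/6J mouse 7, whose summed level was the highest of its strain, 21 genes were called lower in C57BL/6J muscles. The share of all genes without that mouse is not given. In A/J muscles 2 genes were lower (6.08%) and 0 higher (5.79%). The lower ones were Fcgr1 (-0.87, SE 0.20, edgeR adjusted p = 0.00278) and Lyve1. The count for A/J was 1 without mouse 17, 18, 22, 25, 27 or 48, 4 without mouse 8, 9 or 30, and Lyve1 (adjusted p = 0.0236) was the gene lost.

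In brown fat most of the 32 genes were lower in A/J and higher in DBA/2J mice. Ccr2 had 0.938 to 4.03 CPM in A/J brown fat (median 1.84, n = 8), against 4.14 to 13.5 CPM in the other 3 strains (n = 24). No A/J value reached the others (log2 difference -1.92, SE 0.20, edgeR adjusted p = 2.1e-08). Spi1 was lower in A/J by 1.19 (SE 0.17, edgeR adjusted p = 4.03e-06), and 22 genes were lower in all (18.5% of all genes), with 0 higher (17.3%) and a median log2 difference of -0.74 (all genes 0.00). In DBA/2J 24 genes were higher (19.9%) and 0 lower (14.8%), with a median of 0.80 (all genes 0.02). Cybb had 11.9 to 38.9 CPM in DBA/2J brown fat (median 21.9), against 3.95 to 15.2 CPM in the other strains (1.41, SE 0.15, edgeR adjusted p = 1.52e-08). The ranges overlapped at their ends. Ctss was at 51.2 ± 21.5 CPM in DBA/2J and 18.2 ± 8.77 CPM in the other strains (1.60, SE 0.19, edgeR adjusted p = 1.47e-07), Cd68 was higher by 1.28 (SE 0.15) and Itgam by 1.18 (SE 0.14).

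In DBA/2J brown fat 9 of the 11 lipid-associated genes were higher and 1 lower (median 2.43, all genes 0.02), with Trem2, a lipid receptor, at 10.1 ± 4.87 CPM in DBA/2J and 1.32 ± 0.624 CPM in the other strains (2.98, SE 0.25), and the elastase Mmp12 at 50.1 ± 31.2 and 2.77 ± 2.33 CPM (4.42, SE 0.39). Chemokine genes were higher in 8 of 10 and lower in 0, with Ccl2 at 2.29 (SE 0.25). In A/J brown fat 8 of these 11 genes were lower and 1 higher (median -0.96), and 7 of 10 chemokine genes were lower and 0 higher (median -1.12). The sum of the sinusoidal endothelium list, which holds the Fc receptor gene Fcgr2b, was 30.8 to 84.5 CPM in DBA/2J and had medians of 9.17 to 10.2 CPM in the other strains; its part was not tested. In C57BL/6J brown fat 3 genes were higher (13.4% of all genes) and 6 lower (12.8%), with Cx3cr1 at -0.77 and Ms4a7 at -0.66, and 5 were called without mouse 13. In SJL 3 were higher (12.3%) and 1 lower (11.5%), with Ccr2 at 0.83 and Fcgr1 at 0.64, and 2 were called without mouse 54.

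In subcutaneous fat C57BL/6J mice had 23 genes higher (13.6% of all genes) and 1 lower (11.4%). Fcer1g had 30.7 to 63.7 CPM in C57BL/6J (median 39.9, n = 8), against 11.8 to 28.7 CPM in the other 3 strains (n = 24). The groups did not overlap (log2 difference 1.24, SE 0.11, edgeR adjusted p = 5.97e-10). Fcgr3, the low-affinity Fc receptor, was at 44.3 ± 13 CPM in C57BL/6J and 23.8 ± 5.77 CPM in the other strains (0.90, SE 0.12, edgeR adjusted p = 2.33e-06), and Marco at 76 ± 24.7 and 20.4 ± 12.3 CPM (2.05, SE 0.29, 5.96e-06). B cell gene sums had a median of 699 CPM in C57BL/6J, 581 CPM in SJL, 335 CPM in A/J and 239 CPM in DBA/2J. With Cd79a as a covariate the Marco difference was 1.26 and 20 genes were called, with no share of all genes given for that fit. The 1 lower gene was Vsig4 (-1.56, SE 0.45, edgeR adjusted p = 0.012).

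A/J subcutaneous fat had 5 genes higher (11.3% of all genes) and 4 lower (8.17%). Cd163 had 68.4 to 254 CPM in A/J (median 116), against 21.0 to 128 CPM in the other strains, with overlap (log2 difference 1.29, SE 0.19, edgeR adjusted p = 1.47e-05). Folr2 was higher by 1.08 (48.7 ± 14.9 and 24.4 ± 10.9 CPM, edgeR adjusted p = 1.19e-05) and Mrc1 by 0.55. The highest A/J value of all 3 genes was that of mouse 24, the library low in Hoxc10, and the highest Cd163 value among the other A/J libraries was 181 CPM. Without the libraries set aside the differences were 1.13 for Cd163, 0.95 for Folr2 and 0.48 for Mrc1, and all 3 still passed the test. Of the 9 genes of LYVE1- and FOLR2-positive macrophages 8 were higher and 0 lower (median 0.54, all genes -0.01), among them the lectins Cd209d (1.20, SE 0.19) and Mgl2 (1.14, SE 0.15). Ccr2 was lower by 0.77 (SE 0.10, edgeR adjusted p = 2.28e-06) and Cx3cr1 by 0.92 on the log2 scale. Neutrophil gene sums had a median of 2.46 CPM in A/J and 10.3 to 18.7 CPM in the other strains.

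DBA/2J subcutaneous fat had 14 genes lower (20.5% of all genes) and 2 higher (25.1%). Timd4 had 16.4 to 27.2 CPM in DBA/2J (median 18.0), against 18.3 to 89.3 CPM in the other strains (log2 difference -1.26, SE 0.15, edgeR adjusted p = 1.94e-07). The overlap came from 1 library, A/J mouse 24, low in Hoxc10, and the next lowest value of the other strains was 32.4 CPM. Laptm5 was lower by 0.78 (SE 0.14, edgeR adjusted p = 4.59e-05). DBA/2J had the lowest median B cell gene sum of the 4 strains, and with Cd79a as a covariate the differences were -1.06 for Timd4 and -0.58 for Laptm5. The 2 higher genes were Clec4f and Vsig4 (1.82, SE 0.38), in the strain whose median hepatocyte gene sum was highest in this depot, 2577 CPM beside 111 to 566 CPM. Clec4f was at 10.8 ± 16.7 and 1.47 ± 3.7 CPM (3.16, SE 1.25, edgeR adjusted p = 0.0416), and its sign turned without the libraries set aside (-0.89) and with Alb as a covariate (-0.57). In SJL subcutaneous fat 14 genes were lower (21.9%) and 2 higher (21.9%). The 2 higher were Cx3cr1 (0.91, SE 0.18) and Timd4 (0.62, SE 0.14), and Itgam (-0.78, SE 0.12, edgeR adjusted p = 5.73e-06) and Folr2 (-1.04, SE 0.18, 3.81e-05) led the lower ones. Of the lipid-associated genes 8 of 11 were lower in SJL and 0 higher (median -0.82).

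In visceral fat DBA/2J mice had 18 genes higher (15.9% of all genes) and 0 lower (13.3%), with a median log2 difference of 0.45 (all genes -0.05). Cybb had 67.4 to 107 CPM in DBA/2J (median 81.4, n = 8), against 27.1 to 65.2 CPM in the other 3 strains (n = 24). The groups did not overlap (log2 difference 0.96, SE 0.13, edgeR adjusted p = 2.41e-06). Ctss was at 183 ± 31.7 CPM in DBA/2J and 97.5 ± 36.5 CPM in the other strains (0.89, SE 0.16, edgeR adjusted p = 0.000162) and Spi1 at 27.1 ± 4.46 and 14.6 ± 4.64 CPM (0.86, SE 0.14, 4.95e-05). Of the lipid-associated genes 8 of 11 were higher and 1 lower (median 0.96), and of the chemokine genes 7 of 10 were higher and 0 lower, with Ccl2 at 48.8 ± 16.4 and 9.74 ± 9 CPM (2.47, SE 0.30). Neutrophil gene sums had a median of 25.8 CPM in DBA/2J and 2.13 to 4.19 CPM in the other strains, and their part was not tested.

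In C57BL/6J visceral fat Cx3cr1 had the smallest adjusted p of the 32 genes. It was at 1.56 to 3.80 CPM in C57BL/6J (median 3.03), against 3.37 to 16.3 CPM in the other strains (log2 difference -1.65, SE 0.19, edgeR adjusted p = 5.15e-07). The ranges met only at their ends. There 3 genes were higher in C57BL/6J (6.66% of all genes) and 2 lower (5.82%), and 3 in all were called without mouse 1, 2, 8 or 9. In A/J visceral fat 1 gene was higher (8.1%), Cx3cr1 (0.65, SE 0.17), and 4 were lower (5.3%), among them Fcer1g (-0.56, SE 0.12, edgeR adjusted p = 0.00261) and Ccr2 (-0.75, SE 0.18, 0.00431), and 8 were called without mouse 25. In SJL visceral fat 7 genes were lower (8.89%), led by Fcgr3 (-0.71, SE 0.16) and Itgam (-0.76, SE 0.17), and 17 in all were called without mouse 54. The 2 higher (8.7%) were Marco (1.94, SE 0.41) and Timd4 (1.11, SE 0.26). Mouse 50 had the highest values of both, 33.2 and 52.7 CPM, and without the libraries set aside, this one among them, neither passed (1.21, edgeR adjusted p = 0.153, and 0.51, adjusted p = 0.253).

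Diets were compared within each tissue, each with the American diet, so that the 3 comparisons share the American libraries. In liver 6 of the 32 genes were higher on the Mediterranean diet (0.113% of all 18636 genes tested) and 0 lower (0.0322%). Csf1r had 73.1 to 209 CPM in livers of the Mediterranean diet (median 130.4, n = 8), against 45.6 to 109 CPM in those of the American diet (median 73.8, n = 8; log2 difference 0.76, SE 0.16, edgeR adjusted p = 0.0364). The ranges overlapped. The mean was higher on the Mediterranean diet in each strain, by 1.97 times in C57BL/6J, 1.27 times in A/J, 1.69 times in DBA/2J and 1.91 times in SJL. Fcer1g was at 13.7 ± 6.16 CPM on the Mediterranean and 8.52 ± 1.98 CPM on the American diet (0.60, SE 0.12, edgeR adjusted p = 0.0364), at ratios of 1.97, 1.06, 1.36 and 1.80 in the same order of strains. Fcgr3 was at 14.2 ± 5.71 and 8.88 ± 1.61 CPM (0.63, SE 0.14, edgeR adjusted p = 0.0492), and C1qb, C1qa and Ctss made up the 6.

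The Kupffer cell genes did not pass this test. Clec4f was at 230.0 ± 91.9 CPM on the Mediterranean and 170.1 ± 64.1 CPM on the American diet (0.42, edgeR adjusted p = 0.104), at ratios of 1.66 in C57BL/6J, 1.08 in A/J, 1.36 in DBA/2J and 1.36 in SJL. Vsig4 was at 59.9 ± 18.2 and 42.7 ± 9.79 CPM (0.45, edgeR adjusted p = 0.0722), Timd4 at 20.2 ± 8.16 and 12.6 ± 4.41 CPM (0.68, 0.0809) and Cd5l at 241 ± 112 and 158 ± 62.0 CPM (0.56, 0.0722). Of the 32 genes 31 had a positive difference, with a median of 0.57 beside -0.00 over all genes. The exception was Ccr2 (-0.11). An unadjusted edgeR p under 0.05 was found for 22 of the 32 genes. Shares of all genes given for diets are for adjusted edgeR calls. None is given here for diet counts at an unadjusted p or by DESeq2. Those counts are therefore not set against all genes, and no excess is read from them. The 6 other Kupffer cell genes had a median of 0.28 and the 9 monocyte genes of 0.31, with 0 called in any of the 6 lists. Marker sums of sinusoidal endothelium had medians of 201 CPM on the Mediterranean and 202 CPM on the American diet, those of B cells 3.06 and 3.46 CPM, of T cells 1.49 and 1.60 CPM, and of lymphatic endothelium 89.7 and 130.0 CPM.

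The count of 6 changed with single libraries. It was 0 without any 1 of mice 1, 2, 7, 8, 18, 32, 33, 34, 43, 49, 50, 53 and 54, 1 without mouse 17, 3 without mouse 9, 16, 25, 27, 30, 42, 57, 63 or 64, 10 without mouse 24 and 16 without mouse 39. It was 0 with no filter on low counts and 3 with the older form of the edgeR fit, and 19 by DESeq2. Over all 4 diets 0 of the 32 genes passed in liver (0.102% of all genes; 21 at an unadjusted p under 0.05, 12 by DESeq2), and 7 did without DBA/2J mouse 39, 3 without mouse 16 and 1 without mouse 13 or 24. On the vegan diet 0 passed against American (0.113%; 11 unadjusted, 0 by DESeq2), and on the vegetarian diet 0 (0.0%; 2 unadjusted, 0 by DESeq2). The median difference of the 32 genes was 0.26 on the vegan and 0.12 on the vegetarian diet, beside 0.01 over all genes in both.

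**Figure D5:**
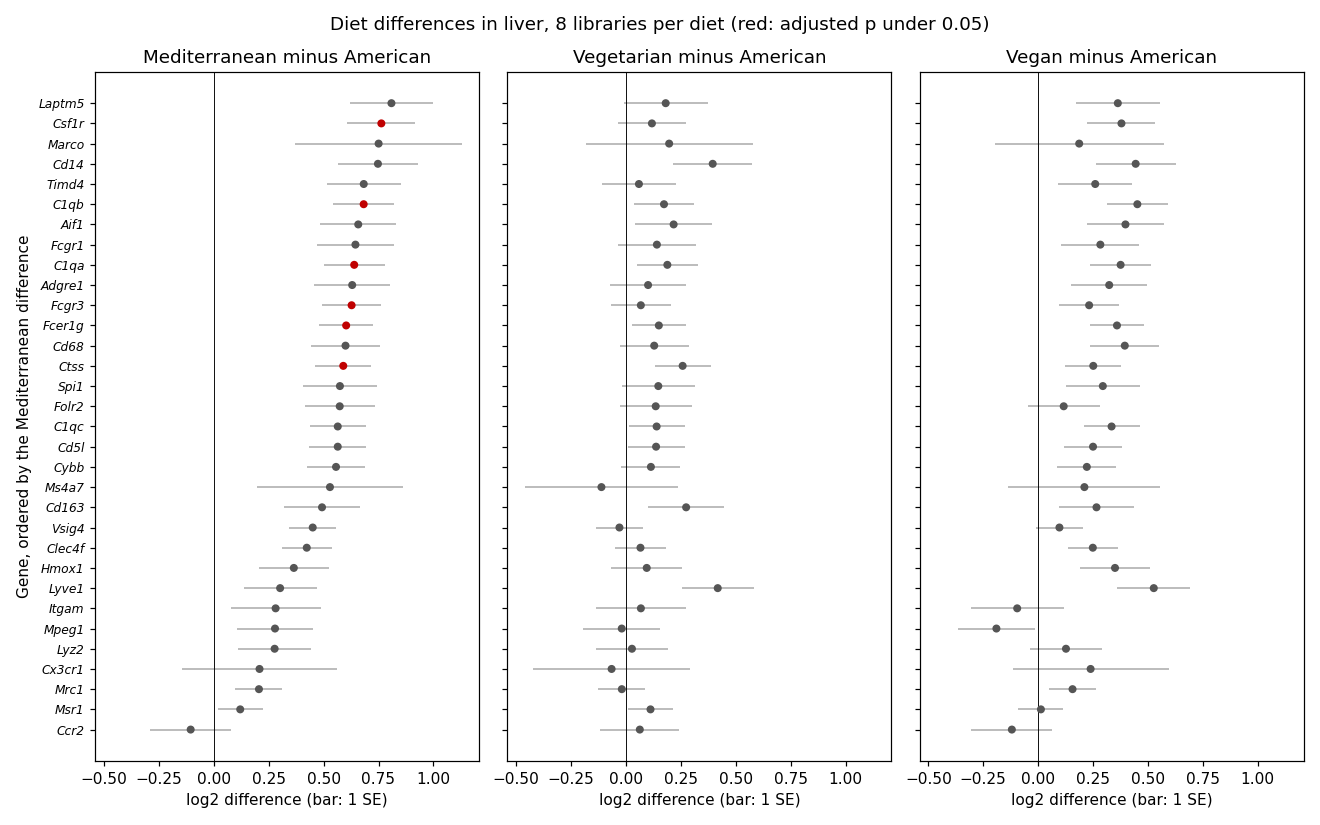
Log2 difference of each of the 32 genes in liver on the Mediterranean, vegetarian and vegan diet from the American diet, with 1 SE on either side, 8 libraries per diet, and red for an adjusted p under 0.05. In the Mediterranean panel 31 of 32 points lie above 0 and 6 are red; in the vegetarian and vegan panels the medians are 0.12 and 0.26 and none is red.

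In the other tissues 0 genes passed edgeR's test for any diet. In brown fat the shares of all genes were 0.421% over all diets, 0.104% on the Mediterranean, 0.267% on the vegetarian and 0.0148% on the vegan diet, and 8, 5, 12 and 11 of the 32 genes had an unadjusted p under 0.05. Laptm5 came nearest there, on the vegetarian diet (edgeR adjusted p = 0.0604). DESeq2 called 1 gene in the test over all diets and 1 for the vegetarian diet. Brown fat of 3 mice, 1, 33 and 50, all on the American diet, was high in Cd79a; without them edgeR again called 0, and without the 4 libraries high in Alb it called 3 over all diets, 1 on the vegetarian and 2 on the vegan diet. Leaving out single libraries gave 1 gene in brown fat over all diets (A/J mouse 17 or 22), on the Mediterranean diet (mouse 22) and on the vegetarian diet (mouse 17 or C57BL/6J mouse 2). In subcutaneous fat, visceral fat and muscle the shares of all genes were 0.0% for each diet, with at most 9 genes at an unadjusted p under 0.05, that of the Mediterranean diet in subcutaneous fat, and 0 by DESeq2.

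The effect of diet was not shown to differ between strains for any of the 32 genes. In the edgeR test of the interaction 0 passed in liver, subcutaneous fat and muscle (0.0% of all genes each), in brown fat (0.0099%) and in visceral fat (0.392%). At an unadjusted p under 0.05 there were 14 in liver, 2 in subcutaneous fat, 2 in muscle, 1 in brown fat and 4 in visceral fat. DESeq2 called 6 in liver and 0 in each of the other tissues. The shares of all genes above are for adjusted edgeR calls, and none is given for these unadjusted and DESeq2 counts. Whether these counts exceed the shares of all genes is therefore not shown. Leaving out 1 library gave 1 gene in brown fat (A/J mouse 30), in subcutaneous fat (A/J mouse 22) and in visceral fat (SJL mouse 49).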

How the data were processed

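RNA was extracted with TRIzol and RNeasy columns from frozen, pulverised tissue, and stranded TruSeq mRNA libraries were read in pairs on a NovaSeq instrument, per the labels' protocols. FastQC, Trim Galore, HISAT2, HTSeq and the build GRCm39 are named in the submitters' processing notes. The tool versions, the annotation and the strand option of HTSeq were not stated (not given in the sources used here). Per the labels' protocols, reads of strains other than C57BL/6J were aligned with a relaxed mismatch penalty and HTSeq shared ambiguous reads in fractions. The deposited table therefore holds estimated counts, of which 74.4% of values above 0 were whole within 1e-06 (85.0% for the 32 genes). A second deposited table holds TPM, which the authors scaled by gene length. Gene IDs were named from GENCODE vM39 (56236 of 56980).

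Estimated counts were rounded to whole numbers, filtered with filterByExpr (at least 10 counts, 15 in total), scaled by TMM and fitted per tissue with strain and diet in edgeR 4.0.16 (R 4.3.3, robust quasi-likelihood F-test), or over all 160 libraries with tissue, strain and diet. P-values were adjusted over all genes by the Benjamini-Hochberg method with a threshold of 0.05. Fits were first run in the older of the 2 forms that edgeR offers, and the newer form (bias-adjusted deviances) was made the main one after results of both had been seen, because it matches the processing of an earlier account of these data. Printed CPM were scaled by TMM over all libraries; sums of markers of other cells are plain CPM. A fold between a tissue or a strain and the others compares means of logs. DESeq2 1.42.0, limma 3.58.1 on log2(TPM + 1) and log2(TPM + 0.1), RLE scaling, no filter, libraries left out singly or as sets, and the mouse as a block were alternatives. Fits with Alb or Cd79a as a covariate and the older edgeR form were alternatives chosen after seeing the data. The libraries set aside had Alb over 10% of the liver mean or a depot marker under 10% of its median. Scripts were tested on simulated data.

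The 32 genes and the lists were chosen with earlier results of these data known. Clec4f, Vsig4, Timd4, Cd5l and Marco are given in each tissue, then the highest gene of each role, up to 4 of the 32 genes per direction and up to 3 genes per list with the smallest adjusted p; other genes named were chosen after their values were seen. In comparisons between tissues the mouse number pairs libraries, since those with the same number come from the same animal (29 of 35 mice had all 5 tissues). Precision is limited by the total counts, 17996919 to 54796454 per library.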

Additional observations from a re-analysis of the deposited data

Results flagged for a closer look

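The summed level of the 32 genes was examined for single libraries far from the others, in 40 groups of 8 libraries (each strain and each diet within each tissue), and 4 stood apart by Dixon's 95% criterion. Chance gives about 1 in 20 groups. In vegan brown fat DBA/2J mouse 45 had 1096 CPM, with the other 7 between 244 and 489 CPM. The 8 DBA/2J brown fat libraries ranged from 489 to 1096 CPM, with a median of 735 CPM. In vegan visceral fat the same mouse had 2925 CPM, with the others between 1416 and 2076 CPM. Groups by diet hold all 4 strains, and this value lay within the range of the 8 DBA/2J visceral libraries, 2040 to 3064 CPM, with a median of 2756 CPM. Its muscle library and its 2 white fat libraries were among those high in Alb. In C57BL/6J muscle mouse 7, on the Mediterranean diet, had 1186 CPM, with the others between 503 and 797 CPM. In A/J muscle mouse 30, on the vegan diet, had 920 CPM, with the others between 696 and 792 CPM.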

How the results depend on the processing

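Counts of called genes stayed within 1.5 times the reported count in 56 of 56 comparisons with RLE size factors, 53 of 56 with no filter, 51 of 56 by DESeq2, 49 of 50 with the older edgeR form, 41 of 46 without the libraries set aside, 39 of 40 with Alb and 20 of 20 with Cd79a as a covariate, 10 of 10 without the libraries high in Cd79a and 6 of 6 with limma. The exceptions follow. The cause was not tested. No share of all genes is given for counts under these alternatives, so they are not set against all genes. In liver on the Mediterranean diet 6 genes became 0 with no filter, 19 by DESeq2, 3 with the older edgeR form and 0 to 16 with 1 library left out. Over all diets in liver 0 became 12 by DESeq2 and 0 to 7 with 1 library left out, and for the interaction in liver 0 became 6 by DESeq2. In brown fat the count over all diets, 0, became 1 by DESeq2, 3 without the libraries set aside and 0 to 1 with 1 left out. On the vegetarian diet there 0 became 1 by DESeq2, 1 without those set aside, 2 with Alb as a covariate and 0 to 1 with 1 left out, on the Mediterranean diet 0 to 1 with 1 left out, and on the vegan diet 2 without those set aside. For the interaction, leaving out 1 library gave 0 to 1 in brown, subcutaneous and visceral fat. For strains, the ranges with 1 left out were 5 to 10 in C57BL/6J brown fat (9), 2 to 5 in SJL brown fat (4), 3 to 6 in C57BL/6J visceral fat (5), 4 to 8 in A/J visceral fat (5), 6 to 17 in SJL visceral fat (9), 9 to 21 in C57BL/6J muscle (13) and 1 to 4 in A/J muscle (2). Without the libraries set aside SJL visceral fat had 5 and A/J muscle 6, and with no filter A/J muscle had 1. Visceral against subcutaneous fat had 9 with no filter (14 reported).

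With the mouse as a block the counts were 31 for subcutaneous fat, 25 for liver, 21 for muscle, 30 for brown fat, 28 for visceral fat and 14 for visceral against subcutaneous fat, and 1 named call, Cd5l in subcutaneous fat, was lost (adjusted p = 0.0793). Values that turned their sign were those of Clec4f in DBA/2J subcutaneous fat, at -0.89 without the libraries set aside and -0.57 with Alb as a covariate (3.16 reported), and of Timd4 in visceral fat against the other 4 tissues, at 0.37 and 0.58 with limma on log2(TPM + 1) and log2(TPM + 0.1), against -0.12 reported. Reads that mismatch the reference, fractional sharing of reads between similar genes, and 2 libraries per combination of strain and diet limit these results, and genes under about 1 CPM rest on few reads.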
